A study of Mus musculus with 32 samples.

Results

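Chromatin accessibility was described at 10 genes of glycolysis and the hypoxia response in mouse LSK cells: Slc2a1, Hk2, Pfkp, Aldoa, Pgk1, Eno1, Ldha, Pdk1, Bnip3 and Vegfa. A region of open chromatin was assigned to a gene when its midpoint lay within the gene's mm10 span, or within 50 kb of it with no nearer gene. The rule gave 86 of 99037 regions in the table of developmental stages and 93 of 147852 regions in the table of cultured cells. All 10 genes held at least 1 region in both tables, of 16671 and 17492 genes with a region. Hk2 had the most regions with 20, followed by Slc2a1 with 15, Vegfa with 13, Pfkp with 11, Eno1 with 8, Ldha with 6, Bnip3, Pdk1 and Pgk1 with 4 each, and Aldoa with 1.

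The series profiles LSK cells of C57BL/6 mice in 32 ATAC-seq libraries. LSK cells are a sorted fraction of blood stem and progenitor cells that lacks lineage markers and carries Sca-1 and Kit. Of these, 26 cover development: E12.5 PL, E12.5 fetal liver (FL), E16.5 FL, and bone marrow (BM) at the perinatal stage and at 1, 4, 6 and 8 weeks (1w to 8w), with 3 libraries each, and 3w BM with 2. The labels do not spell out PL. The other 6 are cells of E12.5 FL after 2 h of culture: 3 libraries, named SHI, had basic medium, and 3, named co-SHI, had medium that E16.5 hepatocytes had conditioned. No genotype other than the strain and no agent other than the conditioned medium is given, and the labels do not say whether animals were pooled or whether replicates came from separate animals, so p-values measure the spread between these libraries, which may be technical. The third 8w library carries an E12.5 stage label beside its 8w title and was used by its title.

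Glycolysis splits glucose into pyruvate in the cytosol, and pyruvate then either enters the mitochondrion through pyruvate dehydrogenase or is reduced to lactate. When oxygen is low, the prolyl hydroxylases that mark HIF-alpha subunits for destruction through VHL slow down, HIF-alpha pairs with ARNT, and the pair binds a short core sequence near genes that raise glucose uptake, glycolysis, lactate formation and blood vessel growth. Fetal liver and adult marrow are both described as low-oxygen sites of blood stem cells, and adult stem cells there are known for relying on glycolysis. ATAC-seq measures how readily the transposase Tn5 cuts DNA, so the values here are openness of chromatin at and around these genes, not RNA or protein.

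Counts in regions per library ran from 2845113 to 10167340 in the developmental table, both extremes in 1w BM, and 3356 to 11851 of them fell in member regions. The cultured table held 7512258 to 22061805 counts per library, with 7787 to 22489 in member regions. No pair of replicates agreed within counting noise: chi-square per region ran from 2.09 upward, and the pairs with the second E12.5 PL library were the most unlike, at 4.99 and 5.21. Counts within 1 kb of a gene end made up 44.0% ± 1.6 (SD, n = 3) of the E12.5 PL libraries, 36.9% ± 1.2 (n = 3) of E12.5 FL, 35.1% ± 2.2 (n = 3) of E16.5 FL and 39.1% ± 0.48 (n = 3) of perinatal BM. All 8 LSK and blood marker genes had counts in every group, Ly6a (Sca-1) at a low level, and their summed level ran from 1039.5 to 1442.9 CPM, counts scaled to a common library size in the developmental libraries. Endothelial markers summed to 1113.8, 716.5 and 1060.9 CPM in the 3 PL libraries against 599.11 to 637.37 in E12.5 FL, and trophoblast markers to 296.51, 445.57 and 313.46 against 245.24 to 260.49. Of the 8 LSK and blood markers, Ptprc (43.3 CPM in PL and 134.1 in E12.5 FL), Runx1, Cd34 and Tal1 were higher in E12.5 FL than in PL, Kit and Gata2 were lower, and Ly6a and Meis1 did not pass. Every marker gene with a region had counts in every group. The hepatocyte markers Fgb and Serpina1a and the stromal marker Dcn had no region, and the erythroid marker Alas2 had no developmental region. In bulk cells, fewer cells of a type and less accessibility per cell cannot be told apart.

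The promoters of 7 of the 10 genes are shown, chosen after the values were seen as those the results below return to, because regions of the study cover them and HIF binding is known to center on the core ACGTG or GCGTG. Each line gives the 250 bases before a RefSeq start (GRCm38.p6, 5′ to 3′ on the gene's strand), with every match to ACGTG or GCGTG on either strand in capitals and overlapping matches counted separately. In order, the lines are Bnip3 at chr7:138909507-138909756 (minus strand), Ldha at chr7:46845554-46845803 (plus), Hk2 at chr6:82774455-82774704 (minus), Pgk1 at chrX:106186850-106187099 (plus), Slc2a1 at chr4:119108495-119108744 (plus), Aldoa at chr7:126799255-126799504 (minus) and Vegfa at chr17:46032378-46032627 (minus).
Bnip3: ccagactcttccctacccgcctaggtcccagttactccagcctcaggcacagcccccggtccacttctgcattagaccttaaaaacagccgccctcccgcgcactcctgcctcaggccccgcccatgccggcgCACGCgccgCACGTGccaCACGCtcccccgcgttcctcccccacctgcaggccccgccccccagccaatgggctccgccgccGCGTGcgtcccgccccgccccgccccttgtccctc
Ldha: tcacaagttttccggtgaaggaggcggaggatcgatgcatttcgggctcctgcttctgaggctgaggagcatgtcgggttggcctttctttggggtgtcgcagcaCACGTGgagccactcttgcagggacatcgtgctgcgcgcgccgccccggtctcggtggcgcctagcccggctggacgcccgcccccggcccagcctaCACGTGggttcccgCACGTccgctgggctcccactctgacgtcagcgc
Hk2: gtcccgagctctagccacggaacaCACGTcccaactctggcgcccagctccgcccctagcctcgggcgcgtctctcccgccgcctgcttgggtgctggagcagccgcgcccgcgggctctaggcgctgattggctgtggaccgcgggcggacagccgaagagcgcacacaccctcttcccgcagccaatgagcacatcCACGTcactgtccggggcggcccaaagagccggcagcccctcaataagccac
Pgk1: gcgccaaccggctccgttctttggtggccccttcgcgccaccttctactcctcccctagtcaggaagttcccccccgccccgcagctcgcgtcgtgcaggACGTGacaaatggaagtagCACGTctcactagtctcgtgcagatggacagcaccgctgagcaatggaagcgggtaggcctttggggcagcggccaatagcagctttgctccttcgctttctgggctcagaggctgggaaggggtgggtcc
Slc2a1: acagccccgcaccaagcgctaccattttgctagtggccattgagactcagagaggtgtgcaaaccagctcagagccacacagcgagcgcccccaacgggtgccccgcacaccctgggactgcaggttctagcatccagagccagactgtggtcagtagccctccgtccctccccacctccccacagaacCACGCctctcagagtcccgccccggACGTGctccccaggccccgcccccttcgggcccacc
Aldoa: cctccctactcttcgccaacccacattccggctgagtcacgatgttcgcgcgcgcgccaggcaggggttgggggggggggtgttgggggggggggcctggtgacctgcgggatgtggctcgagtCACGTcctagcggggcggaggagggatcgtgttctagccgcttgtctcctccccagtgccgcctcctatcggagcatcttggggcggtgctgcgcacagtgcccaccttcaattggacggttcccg
Vegfa: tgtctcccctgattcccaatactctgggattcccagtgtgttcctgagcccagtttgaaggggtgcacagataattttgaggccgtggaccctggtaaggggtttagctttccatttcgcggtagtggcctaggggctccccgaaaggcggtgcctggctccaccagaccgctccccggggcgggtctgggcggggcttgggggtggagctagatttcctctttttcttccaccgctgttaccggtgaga
In the bases printed, Bnip3 and Ldha hold 5 matches each, Hk2, Pgk1 and Slc2a1 hold 2, Aldoa holds 1 and Vegfa holds 0. Over the 300 bases of the RefSeq windows, which run 50 bases past the start, Ldha holds 7 and the other 6 hold the same numbers. In windows not printed, Pfkp holds 4 matches and Pdk1 and Eno1 hold 2 each at the starts their regions cover. Of the 32851 windows of all genes, 43.8% hold at least 1 match, and 61.8% of the 15331 windows whose start lies in a developmental region do. A match is a description of the letters and not a bound site.

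Each gene's level is the sum of its region counts, scaled to CPM with TMM factors of the gene sums. The plot of summed accessibility by library shows the levels in the 9 developmental groups. The highest group mean was between 1.21 times the lowest, for Hk2, and 1.68 times, for Bnip3. Over any of the 9 groups, 7 of 10 genes passed edgeR's quasi-likelihood test at a Benjamini-Hochberg adjusted p of 0.05, where 71.9% of all genes tested did. Those that did not pass were Hk2 (adjusted p = 0.48), Pgk1 (0.96) and Vegfa (0.071). At the level of regions, 62 of 86 passed, against 64.4% of all regions. Without the 3 PL libraries 4 genes and 25 regions passed, where 45.1% of all genes and 29.4% of all regions did.

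**Figure D1:**
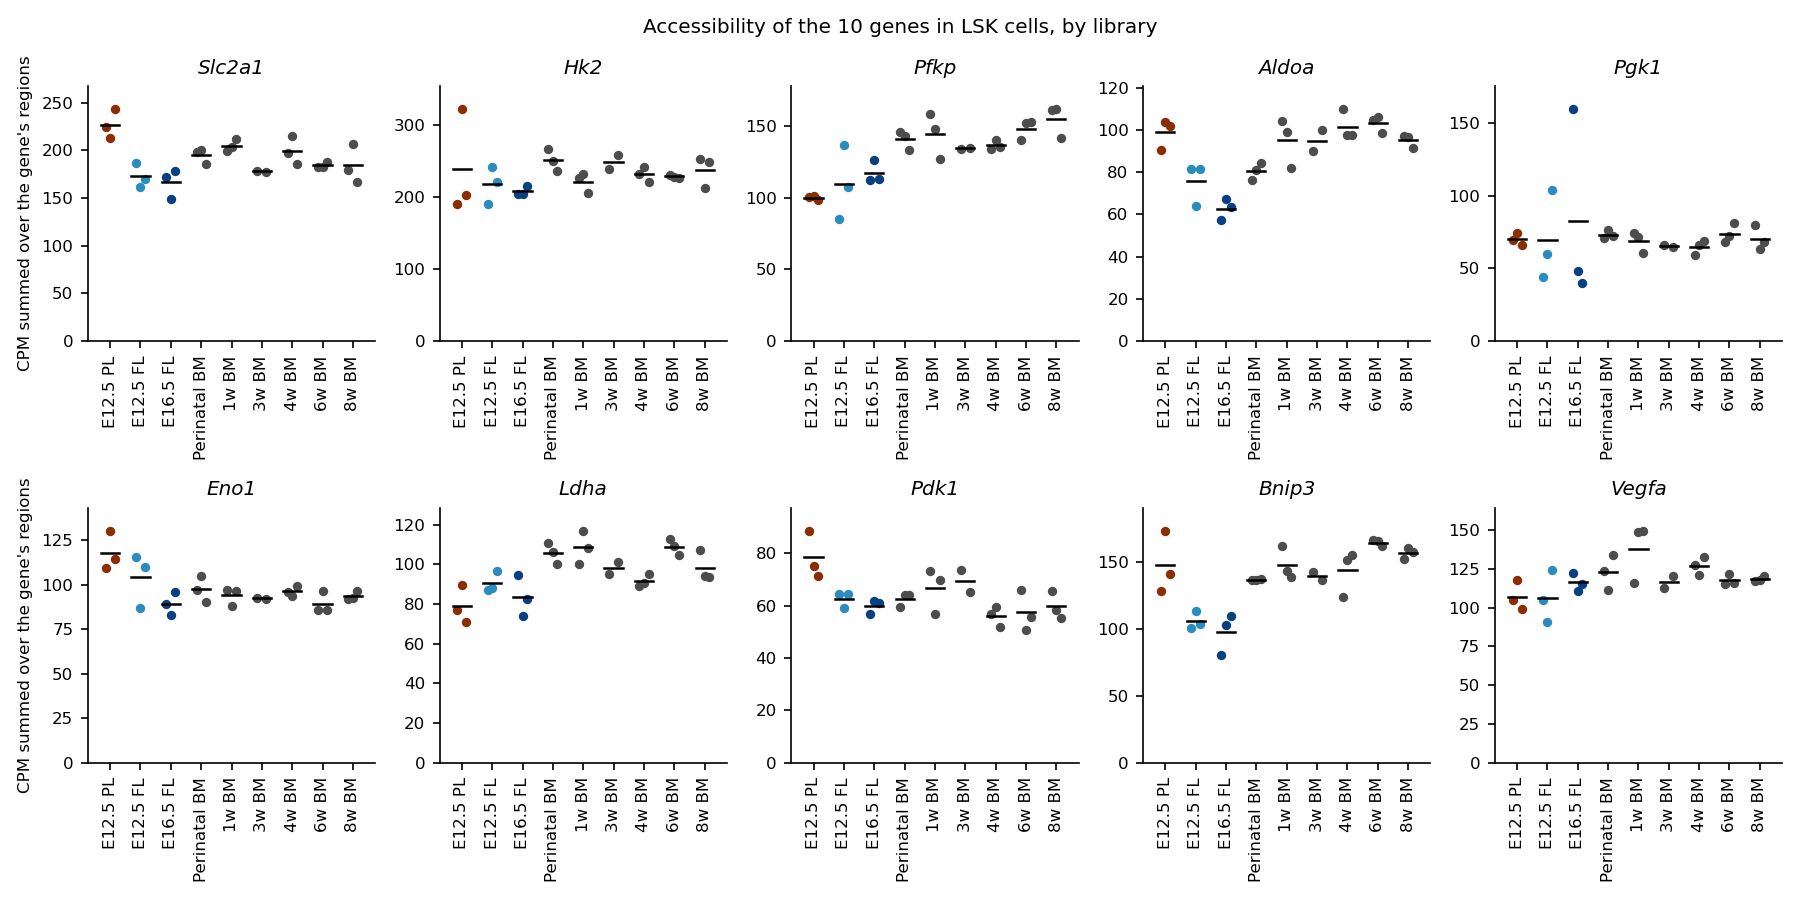
Summed accessibility of each of the 10 genes (y axis, CPM over all regions of the gene, from 0) in each of the 26 developmental libraries (points) by group (x axis), with horizontal bars for group means. Bnip3 and Aldoa are lowest in the 2 fetal liver groups, Pfkp is lowest in E12.5 PL, and single libraries stand far above their groups for Hk2 (E12.5 PL, 321.5) and Pgk1 (E16.5 FL, 159.6).

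The order of the groups differed between the genes. Slc2a1, the glucose transporter GLUT1, was highest in E12.5 PL (227.1 CPM) and lowest in E16.5 FL (166.8). Pfkp, a phosphofructokinase that commits sugar to glycolysis, ran the other way, from 99.9 CPM in PL to 154.8 in 8w BM. Aldoa, the aldolase that splits fructose bisphosphate, went from 62.7 CPM in E16.5 FL to 103.2 in 6w BM. Bnip3, a mitophagy receptor of the outer mitochondrial membrane, went from 97.7 CPM in E16.5 FL to 164.5 in 6w BM. Ldha, which turns pyruvate into lactate, was lowest in PL (79.1) and highest in 6w BM (108.8). Pdk1, the kinase that switches pyruvate dehydrogenase off, was lowest in 4w BM (56.1) and highest in PL (78.4). Neighbouring groups in these orders had overlapping libraries in 75 of 80 steps over the 10 genes. Groups were sorted by their means, so each step joins the closest groups, and 92.4% of the steps of all genes overlapped too. The 5 exceptions were 2 steps of Bnip3 and 1 each of Aldoa, Pfkp and Slc2a1, whose PL libraries all lay above those of 1w BM, the next group.

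E12.5 FL and E12.5 PL are LSK groups of the same embryonic age. Slc2a1, Aldoa, Pdk1 and Bnip3 were less accessible in E12.5 FL than in PL, and no member was more accessible. This is 4 of 10 genes lower and 0 higher, where 23.9% of all genes tested were lower and 25.7% higher. The median log2 change of the 10 genes was -0.16, against -0.02 for all genes.

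Bnip3 read 128.2, 173.4 and 141.3 CPM in the PL libraries and 100.7, 113.6 and 104.0 in E12.5 FL. Its groups did not overlap, and the log2 change was -0.48 (SE 0.11, edgeR quasi-likelihood test, adjusted p = 0.00061). Slc2a1 read 225.0, 212.9 and 243.2 CPM in PL and 187.2, 161.6 and 170.1 in FL, a change of -0.39 (SE 0.097, adjusted p = 0.00093). Every Slc2a1 value in PL lay above every value in FL. Aldoa read 90.8, 103.9 and 102.2 CPM in PL and 81.5, 64.2 and 81.7 in FL (log2 change -0.38, SE 0.12, adjusted p = 0.0059). For Pdk1, the values were 88.6, 75.1 and 71.4 CPM in PL and 64.3, 59.1 and 64.4 in FL (-0.32, SE 0.13, adjusted p = 0.031). Both genes were lower in all FL libraries, but the Pdk1 call was lost without the first PL library and without the second FL library, and the Aldoa call without the second FL library (adjusted p = 0.063). The remaining 6 genes did not pass, with log2 changes from -0.18 for Eno1, which makes phosphoenolpyruvate, to 0.19 for Ldha. Using only regions within 1 kb of a gene end, 0 members passed and Bnip3 turned to 0.20 (adjusted p = 0.23). With the scaling factors of the regions, under which the median of all genes is -0.30, 7 genes were lower.

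The single regions with the largest log2 changes between PL and FL lay away from the transcript starts. Of the 86 regions, 15 were higher in FL and 34 lower, where 23.1% and 26.4% of all regions were. Scaled to total counts the split was 21 higher and 26 lower. Of the 46 intergenic regions 12 were higher and 13 lower, where 25.2% and 21.1% of all intergenic regions were. Of the 29 gene-body regions 3 were higher and 15 lower, where 24.6% and 23.8% of all gene-body regions were. Leaving out 1 library at a time kept 38 to 44 of these 49 calls.

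Hk2, the inducible hexokinase that traps glucose in the cell, had changes of both signs, and its sum did not pass (log2 change -0.13, adjusted p = 0.37). Its region inside the gene at chr6:82756070-82756570, 18.1 kb downstream of the start, read 17.3, 45.2 and 19.0 CPM in PL and 1.4, 0.9 and 2.2 in FL. The log2 change was -4.16 (SE 0.55, adjusted p = 1.5e-08), and -3.55 without the second PL library (adjusted p = 1.1e-05). The next region, at chr6:82756733-82757233, read 11.8, 26.8 and 11.1 CPM against 1.1, 1.2 and 0.2 (-4.23, SE 0.60, adjusted p = 8e-08). The authors' peak lists hold a peak in 3 of 26 libraries at the first of these regions, all 3 of PL, and in 1 of 26 at the second. In both, the second PL library was the highest, as it was for the trophoblast marker sum, and the part of that library's make-up in these values was not tested. All other groups stayed at the FL level at the +18.1 kb region, as the plot of single regions shows.

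Upstream of Hk2 the direction was the opposite. The region at chr6:82780347-82781457, 6.4 kb before the start, read 1.2, 3.2 and 3.0 CPM in PL and 12.7, 12.9 and 12.3 in FL (log2 change 2.34, SE 0.33, adjusted p = 6.1e-08). At chr6:82824097-82824684, 49.9 kb before the start, PL read 2.6, 5.2 and 6.5 CPM and FL read 14.3, 19.4 and 20.9 (1.92, SE 0.28, adjusted p = 1.2e-07). No library of one group reached the other in either region. The authors' peak lists hold a peak in 0 of 3 E12.5 FL libraries at the -6.4 kb region and in 2 of 3 at the other.

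**Figure D2:**
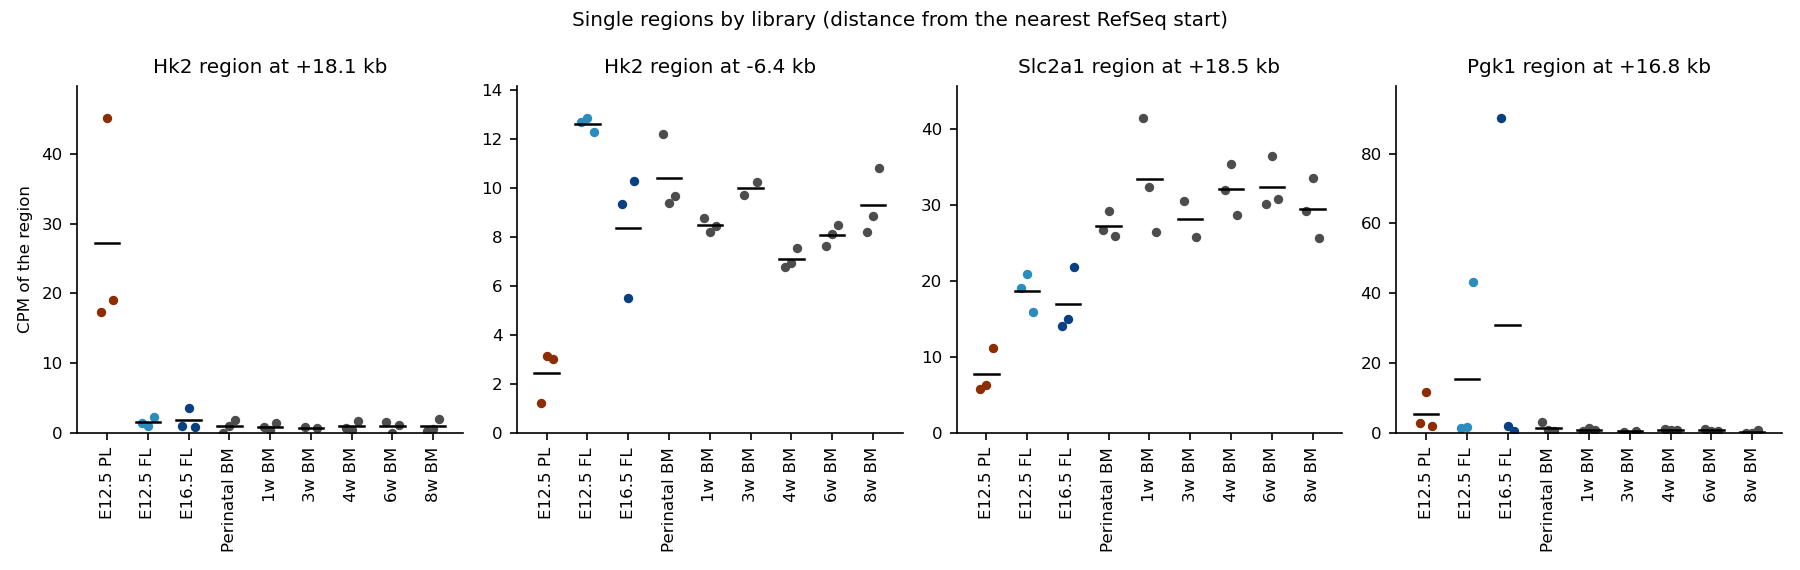
CPM (y axis, from 0) of 4 single regions in each developmental library (points) by group (x axis), with bars for group means. Panels show the Hk2 region at +18.1 kb, open in E12.5 PL at 17.3 to 45.2 CPM and near 0 elsewhere, the Hk2 region at -6.4 kb, lowest in PL, the Slc2a1 region at +18.5 kb, and the Pgk1 region at +16.8 kb, high in 1 library of E12.5 FL and 1 of E16.5 FL.

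Other members also held regions of both signs. Bnip3 had a region at chr7:138906913-138907413, 2.3 kb inside the gene, that read 16.6, 41.4 and 20.1 CPM in PL and 8.4, 4.2 and 5.4 in FL (log2 change -2.11, SE 0.34, adjusted p = 1.3e-06). The second PL library was again the highest, and the part of its make-up was not tested. The authors' peak lists hold a peak there in 1 of 26 libraries. In Vegfa, which encodes the growth factor that draws blood vessels, the region at chr17:46045698-46046256, 13.6 kb upstream, read 2.9, 0.9 and 1.9 CPM in PL and 5.4, 8.9 and 10.3 in FL (2.12, SE 0.36, adjusted p = 2.8e-06). Slc2a1 had its smallest p at chr4:119105603-119106236, 2.8 kb upstream, with 30.3, 44.3 and 33.8 CPM in PL and 17.0, 14.8 and 17.4 in FL (-1.14, SE 0.21, adjusted p = 1.7e-05). A further region inside Slc2a1, at +18.5 kb and chosen after its values were seen, read 5.8, 6.3 and 11.1 CPM in PL and 19.0, 20.8 and 15.9 in FL (1.26, SE 0.24, adjusted p = 2.6e-05). Eno1 had a region at chr4:150242643-150243292, 5.7 kb inside the gene, that read 1.0, 2.5 and 0.9 CPM in PL and 9.3, 2.8 and 6.9 in FL (2.09, SE 0.41, adjusted p = 3.5e-05). The smallest p of Pgk1 was at 2.6 kb upstream (-2.70, SE 0.67, adjusted p = 0.00085), that of Ldha at 6.8 kb upstream (0.79, SE 0.25, adjusted p = 0.0088) and that of Pfkp at 40.3 kb upstream (1.19, SE 0.35, adjusted p = 0.0039). At this Pgk1 region the authors' peak lists hold a peak in 0 of 26 libraries. At the Vegfa, Eno1 and Pfkp regions named in this paragraph, they hold a peak in 0 of 3 E12.5 FL libraries.

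**Figure D3:**
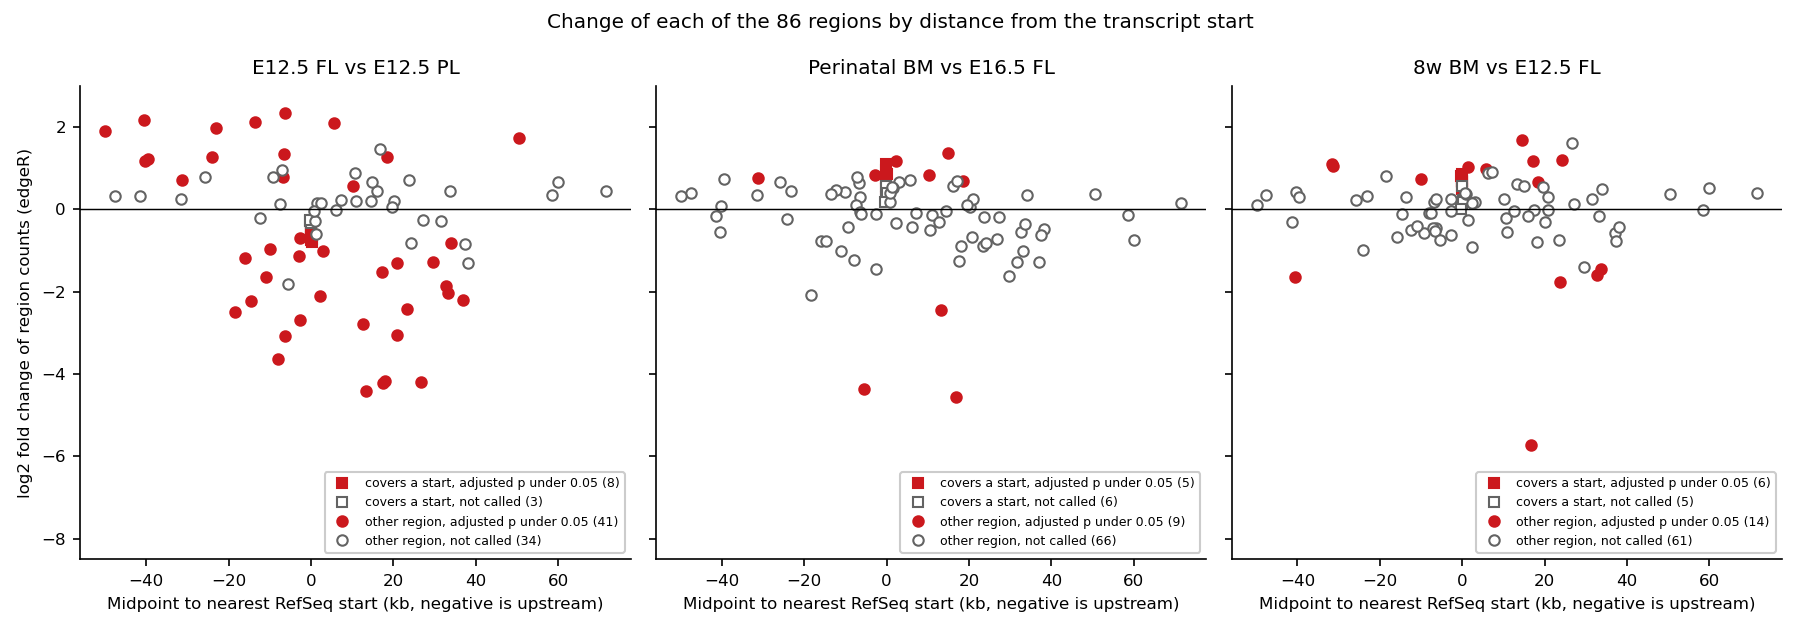
log2 fold change of each of the 86 member regions (y axis) against the distance of its midpoint from the nearest RefSeq start (x axis, kb, negative is upstream) in 3 comparisons, with squares for regions that cover a start and filled symbols for adjusted p under 0.05. Between E12.5 FL and PL, changes reach -4.41 and 2.34 away from the start, while the start regions stay between -0.80 and -0.27. With loess offsets the start regions had a median change of -0.05, and 2 of 11 were above 0.

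In each gene the strongest region covered a transcript start. The authors' peak lists hold a peak there in 26 of 26 developmental libraries for Aldoa, Bnip3, Eno1, Hk2, Pfkp, Pgk1 and Slc2a1, in 25 for Pdk1, 24 for Ldha and 22 for Vegfa. In all, 11 of the 86 regions cover a RefSeq start, 2 of them in Ldha. Between PL and E12.5 FL, 8 of 11 were lower and 0 higher, where 52.5% of all start-covering regions were lower and 7.72% higher. Pdk1 changed the most. Its start region, chr2:71872960-71873883, read 78.7, 70.9 and 63.9 CPM in PL and 40.5, 36.3 and 45.4 in FL (log2 change -0.80, SE 0.17, adjusted p = 0.0001). That of Eno1, chr4:150236801-150237431, read 71.0, 73.1 and 63.9 against 45.7, 36.5 and 41.2 (-0.75, SE 0.17, adjusted p = 0.00026). That of Slc2a1, chr4:119108409-119109440, read 113.5, 77.9 and 95.1 against 66.3, 50.3 and 57.2 (-0.72, SE 0.16, adjusted p = 0.00034). In these 3 genes the PL and FL libraries did not overlap. Aldoa's only region, chr7:126799014-126799777, fell by 0.67 on the log2 scale here and by 0.38 as a gene sum, since regions and gene sums were scaled apart. Hk2 (-0.57, adjusted p = 0.0055), Pgk1 (-0.53, 0.0077), the first Ldha start (-0.48, 0.035) and Pfkp (-0.47, 0.038) were also lower. Bnip3 (-0.28, adjusted p = 0.12), Vegfa (-0.27, adjusted p = 0.25) and the second Ldha start did not pass. These calls depend on the scaling: 4 of 11 were lower with total counts, 11 of 11 with DESeq2 size factors, and with loess offsets, which level the change at strong regions, 0 were lower and Bnip3 was higher (0.37, adjusted p = 0.015). The share of counts at gene ends was also higher in PL, and its part in these calls was not tested.

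**Figure D4:**
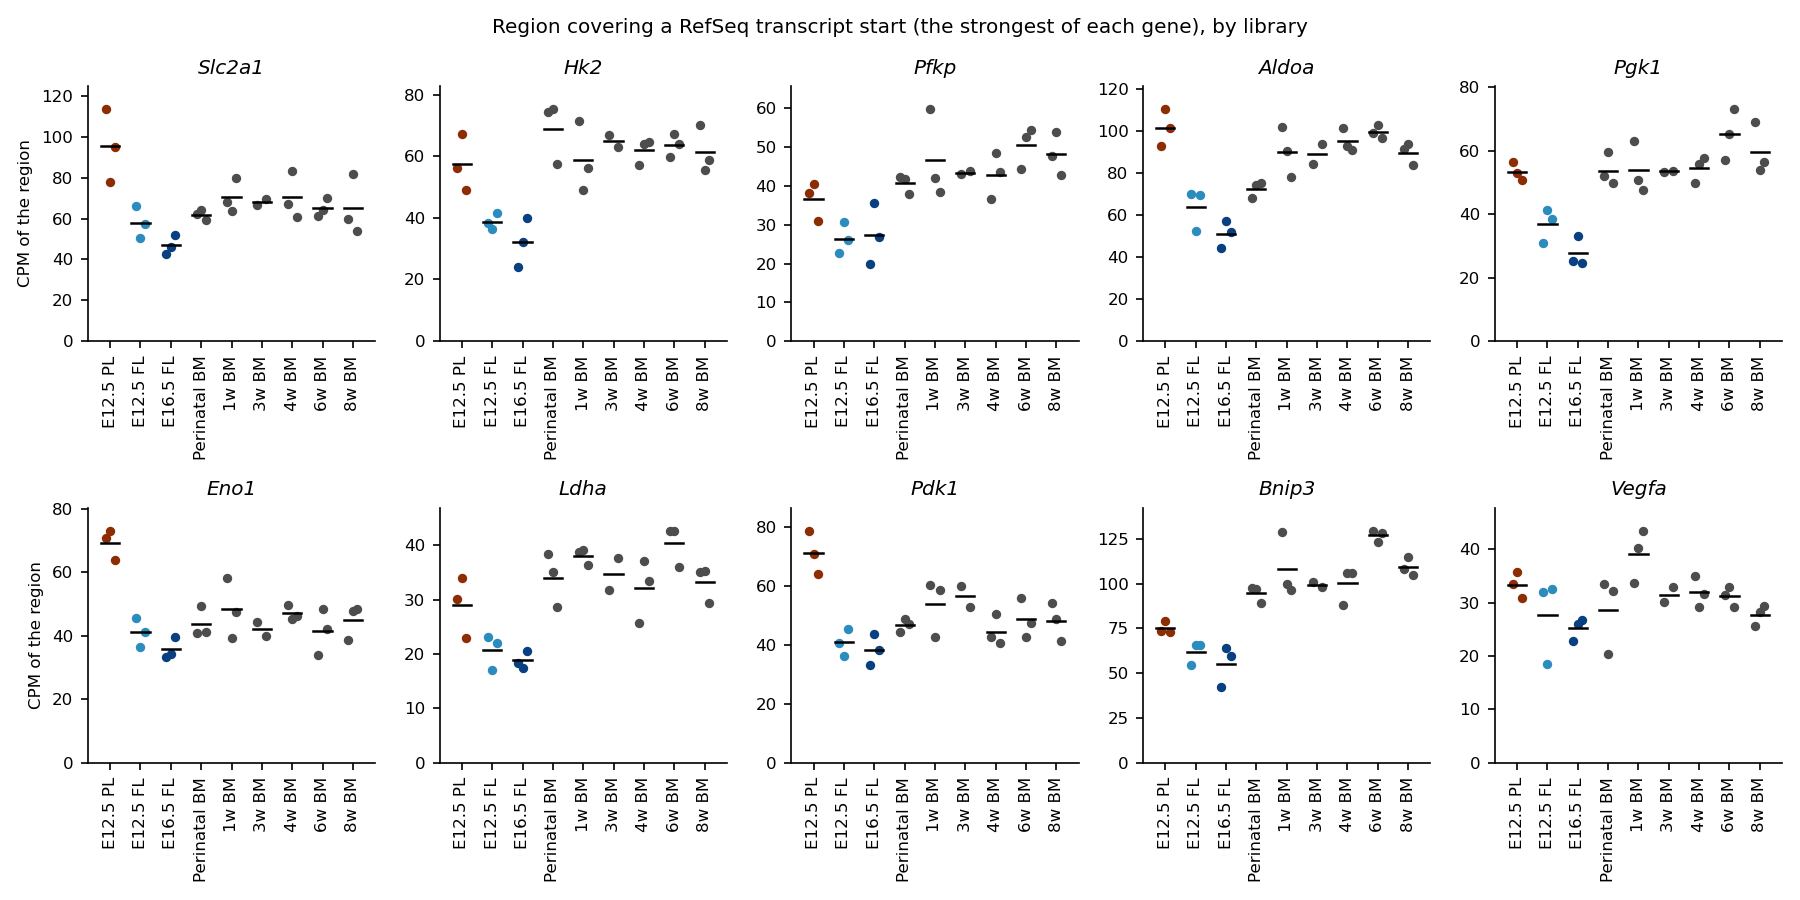
CPM (y axis, from 0) of the strongest start-covering region of each gene in each developmental library (points) by group (x axis), with bars for group means, under TMM scaling. In Hk2, Pgk1, Ldha and Bnip3 every perinatal BM library lies above every E16.5 FL library, whereas those of Vegfa overlap. With loess offsets only the Hk2 step passed the test.

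From E12.5 to E16.5 FL, 0 of 10 genes and 0 of 86 regions passed edgeR's test, where 0.0% of all genes and 0.00101% of all regions did. Without adjustment, 1296 of all genes had a p under 0.05. Among the members the gene-sum log2 changes ran from -0.27 for Aldoa (adjusted p = 0.62) to 0.25 for Pgk1 (0.84). DESeq2 also called 0 member genes and 0 member regions.

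The value of Pgk1, which makes the first ATP of glycolysis and is X-linked, rested on single libraries. It read 44.3, 60.0 and 104.0 CPM in E12.5 FL and 159.6, 48.4 and 40.0 in E16.5 FL. The high values came from 1 region at its 3′ end, chrX:106203559-106204242. That region read 43.2 CPM in the third E12.5 FL library and 90.4 in the first E16.5 FL library, 11.7 in the second PL library, and at most 2.9 in every other PL, fetal liver or marrow library. The authors' peak lists hold a peak there in 3 of 26 libraries. The cultured table has no region there.

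Around birth, blood formation moves from liver to marrow, which perinatal BM against E16.5 FL brackets. Organ and stage change together in this comparison and cannot be told apart. Bnip3, Aldoa and Ldha became more accessible, and no member became less so. This is 3 of 10 genes higher, where 10.6% of all genes were higher and 6.16% lower, and the median log2 change was 0.24 against -0.005 for all genes. In 6 of 10 genes every perinatal BM library lay above every E16.5 FL library, where 17.3% of all genes had this. Among the markers, 2 of 8 LSK and blood and 1 of 6 hepatocyte markers (Apoa2 at 0.46) were higher. Lower were 1 of 8 endothelial (Tek at -0.92), 1 of 8 macrophage (C1qa at -1.54) and 1 of 7 stromal markers (Pdgfra at -0.68). Of the 8 trophoblast and 7 erythroid markers, 0 passed. The part of cell make-up in the member changes was not tested.

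Bnip3 read 80.8, 103.2 and 109.3 CPM in E16.5 FL and 136.2, 136.4 and 137.0 in perinatal BM (log2 change 0.48, SE 0.12, adjusted p = 0.0048). Aldoa read 57.2, 67.2 and 63.6 CPM, then 76.3, 81.3 and 84.2 (0.36, SE 0.12, adjusted p = 0.034). Ldha read 94.8, 73.7 and 82.4 CPM, then 110.5, 106.4 and 100.1 (0.34, SE 0.11, adjusted p = 0.035). Every perinatal library was above every E16.5 FL library in these genes, yet the calls were not stable. With loess offsets 0 genes passed, with total counts or the compared groups alone 1 did, and leaving out single libraries left 1 or 2. Bnip3 was lost without the first E16.5 FL library (adjusted p = 0.088). Hk2 (0.27, adjusted p = 0.12), Pfkp (0.26, 0.11) and Slc2a1 (0.23, 0.10) did not pass, and with the scaling factors of the regions, where the median of all genes is 0.14, 6 genes passed. Without the first E16.5 FL library, Pgk1 turned from -0.16 to 0.72 (adjusted p = 0.037).

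Of the 11 start-covering regions, all had log2 changes above 0 at the step into marrow under TMM scaling, with a median of 0.51, and 5 had with loess offsets, with a median of -0.04. Hk2 rose the most: its start region, chr6:82774271-82774846, read 24.1, 32.3 and 40.1 CPM in E16.5 FL and 74.4, 75.3 and 57.4 in perinatal BM (log2 change 1.10, SE 0.18, adjusted p = 4e-05), and it passed under all 13 alternatives. The region of Pgk1, chrX:106186667-106187251, read 25.3, 33.3 and 24.7 CPM, then 52.0, 59.5 and 49.8 (0.96, SE 0.17, adjusted p = 0.0002). The first Ldha start, chr7:46845493-46846073, read 18.4, 17.5 and 20.5 CPM, then 38.3, 35.1 and 28.7 (0.85, SE 0.19, adjusted p = 0.0027). Hk2, Pgk1 and Ldha act on the route from glucose to lactate. So do Pfkp (0.57, edgeR adjusted p = 0.052) and Eno1 (0.30, 0.31), whose start regions did not pass. The Bnip3 start region, chr7:138909432-138910038, read 42.5, 64.3 and 59.4 CPM, then 97.9, 97.1 and 89.1 (0.77, SE 0.15, adjusted p = 0.00064). Pgk1, Ldha and Bnip3 each passed under 12 of 13 alternatives and failed with loess offsets (adjusted p = 0.095, 0.23 and 0.39). The upstream bases printed above for Hk2, Pgk1, Ldha and Bnip3 lie within their start regions. Those printed for Slc2a1, Aldoa and Vegfa lie within theirs too, and the start regions of Slc2a1 and Vegfa did not pass.

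Aldoa completed the set of 5 start regions that were higher, of 11, where 18.9% of all start-covering regions were higher and 0.532% lower. Its change was 0.51 (SE 0.15, adjusted p = 0.028), and it passed under 5 of 13 alternatives. With loess offsets 1 of the 11 passed, that of Hk2 (0.62, adjusted p = 0.015). The starts of Pdk1 (0.28, adjusted p = 0.35), Eno1 (0.30, 0.31), Slc2a1 (0.40, 0.14) and Vegfa (0.17, 0.66) did not pass. The share of counts at gene ends rose with these regions, from 35.1% to 39.1%, and its part in them was not tested.

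Over all 86 regions, 11 were higher and 3 lower, where 6.66% and 1.36% of all regions were. With total counts 5 were higher and 3 lower, and with loess offsets 2 and 1. Pfkp had a region at chr13:6633384-6634396, 14.9 kb inside the gene, that read 4.2, 7.5 and 10.5 CPM in E16.5 FL and 22.9, 19.3 and 14.98 in perinatal BM (log2 change 1.36, SE 0.31, adjusted p = 0.0028). A Vegfa region 31.3 kb upstream, chr17:46063207-46064228, read 18.7, 12.8 and 17.1 CPM, then 22.4, 28.3 and 31.0 (0.75, SE 0.21, adjusted p = 0.015). The groups did not overlap at either place. The Slc2a1 region 2.8 kb upstream, which had been higher in PL than in E12.5 FL, read 17.7, 13.0 and 12.96 CPM in E16.5 FL and 20.0, 30.8 and 26.2 in perinatal BM (0.83, SE 0.22, adjusted p = 0.01). Inside Hk2, the region at chr6:82763945-82764578, 10.2 kb from the start, read 19.2, 25.3 and 23.96 CPM and then 43.3, 46.3 and 32.0 (0.83, SE 0.23, adjusted p = 0.012). A weaker Pgk1 region 2.4 kb inside the gene was also higher (1.19, SE 0.36, adjusted p = 0.03). The lower calls included a Pdk1 region 5.5 kb upstream, which read 4.18, 1.75 and 0.489 CPM and then 0, 0 and 0.254 (adjusted p = 0.023). The 3′ region of Pgk1 was called lower (-4.57, SE 0.92, adjusted p = 0.0007), but without the first E16.5 FL library its change was 0.06 (adjusted p = 0.99). Leaving out the first E16.5 FL library or the second perinatal library left 6 member regions called.

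In the 3 steps tested within marrow the members did not pass. From perinatal to 1w BM, from 1w to 4w BM and from 4w to 8w BM, 0 of 10 genes and 0 of 86 regions did, where 0.258%, 0.642% and 0.0% of all genes and 0.18%, 0.61% and 0.0273% of all regions did. From 4w to 8w, 843 of all genes had an unadjusted p under 0.05. The Aldoa sum, at 76.3, 81.3 and 84.2 CPM in perinatal BM and 104.2, 99.0 and 82.1 at 1w, had a log2 change of 0.23 (adjusted p = 0.57). The groups overlapped. Bnip3 stayed between 124.1 and 166.2 CPM in all 17 marrow libraries, and Slc2a1 between 166.5 and 215.3. Eno1 had group means of 92.5, 96.5, 89.3 and 93.7 CPM at 3w, 4w, 6w and 8w. DESeq2 called 0 members in these 3 comparisons as well. Perinatal BM was not tested against 4w, 6w or 8w BM, and 3w and 6w BM entered no test of 2 groups. Every 6w library lay above every perinatal library for Aldoa (98.6 to 106.2 CPM at 6w) and Bnip3 (161.6 to 166.2 against 136.2 to 137.0). For Hk2 every 6w library lay below (226.8 to 230.7 against 236.2 to 266.0 CPM). These levels were picked after they were seen.

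The ends of the series, 8w BM against E12.5 FL, gave Bnip3, Pfkp and Aldoa as more accessible in adult marrow and no member as less so. This is 3 of 10 genes higher, where 15.7% of all genes were higher and 14.2% lower, and the E12.5 FL libraries are the same as in the comparison with PL. At 8w, 3 of 8 endothelial markers (Tek at -1.11) and 3 of 8 trophoblast markers (Cdx2 at -0.86) were lower. Of 7 stromal markers, 3 were lower (Lepr at -1.34) and 1 higher. Hepatocyte markers split into 2 higher and 2 lower of 6, and macrophage markers into 1 higher and 1 lower of 8. Of the 7 erythroid and the 8 LSK and blood markers, 0 passed. The part of cell make-up in the member changes was not tested. The summed endothelial level was 494.39 to 541.07 CPM at 8w and 599.11 to 637.37 in E12.5 FL. Bnip3 read 151.8, 160.5 and 157.4 CPM at 8w (log2 change 0.56, SE 0.11, adjusted p = 0.00024). Pfkp read 161.2, 161.7 and 141.5 CPM against 84.9, 137.0 and 107.7 in E12.5 FL (0.50, SE 0.12, adjusted p = 0.0012). Both genes were higher in every 8w library than in any E12.5 FL library and passed under all 16 alternatives. Aldoa read 97.4, 96.8 and 91.6 CPM (0.33, SE 0.12, adjusted p = 0.028), a call lost with total counts, with loess offsets, with the compared groups alone and without the second E12.5 FL or the first or second 8w library. The third 8w library, whose stage label reads E12.5, is the last value given for each gene, and it was the lowest of the 3 for Pfkp and Aldoa.

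Of the regions, 15 were higher and 5 lower at 8w, where 10.7% and 5.7% of all regions were. With total counts the split was 10 and 7. Start regions were higher in 6 of 11 and lower in 0, where 22.1% of all start-covering regions were higher and 5.12% lower, and with loess offsets 0 were called. The share of counts at gene ends was 40.3% at 8w and 36.9% in E12.5 FL, and its part was not tested. Pfkp's start region, chr13:6648552-6649111, read 22.6, 30.7 and 26.01 CPM in E12.5 FL and 47.9, 53.9 and 42.8 at 8w (log2 change 0.87, SE 0.19, adjusted p = 0.00058). Another region 1.5 kb inside Pfkp, chr13:6647024-6647571, read 7.5, 20.8 and 16.7 CPM and then 31.5, 31.9 and 28.9 (1.04, SE 0.23, adjusted p = 0.00053). Bnip3's start region read 54.3, 65.8 and 65.8 CPM and then 108.0, 114.8 and 104.7 (0.82, SE 0.15, adjusted p = 6.1e-05). The Vegfa region at 31.3 kb upstream read 14.3, 11.5 and 19.4 CPM and then 30.3, 34.7 and 28.3 (1.05, SE 0.21, adjusted p = 0.00015), and it passed under all 13 alternatives. In PL it had read 8.2, 8.1 and 11.3 CPM, so its level was lowest in PL and highest in marrow, while the region over the Vegfa start did not pass in any of these comparisons. Inside Slc2a1, the region at chr4:119125446-119126431, 17.2 kb from the start, read 9.74, 6.09 and 4.91 CPM in E12.5 FL and 15.1, 17.7 and 14.1 at 8w (1.17, SE 0.29, adjusted p = 0.0023), and PL had read 18.3, 17.3 and 24.1. Lower at 8w were a region 33.7 kb from the start of Slc2a1 (-1.44, SE 0.34, adjusted p = 0.0014), a region 23.7 kb from the start of Eno1 (-1.76, SE 0.40, adjusted p = 0.001) and the 3′ region of Pgk1 (-5.74, SE 1.16, adjusted p = 0.00023). The last was -2.41 without the third E12.5 FL library (adjusted p = 0.30).

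Cells of E12.5 FL kept for 2 h in hepatocyte-conditioned medium differed from those in basic medium at Pfkp and Vegfa. Pfkp was more accessible and Vegfa less accessible in conditioned medium, 1 of 10 genes each way, where 4.67% of all genes were higher and 2.45% lower. Pfkp read 70.5, 73.6 and 76.6 CPM in SHI and 94.7, 91.5 and 86.9 in co-SHI (log2 change 0.30, SE 0.070, adjusted p = 0.018). Vegfa read 154.5, 170.7 and 157.0 CPM in SHI and 133.7, 137.2 and 138.0 in co-SHI (-0.24, SE 0.060, adjusted p = 0.023). The groups did not overlap in either gene, but both calls were lost without the first or second SHI library and without the first or second co-SHI library. Bnip3 (0.21, SE 0.065, adjusted p = 0.061) and Aldoa (-0.27, SE 0.090, adjusted p = 0.068) did not pass, and their libraries did not overlap for Bnip3 and overlapped for Aldoa. Among the markers, 2 of 8 macrophage (Adgre1 at 0.38, Vsig4 at 0.41) and 1 of 8 erythroid markers (Alas2 at 1.10) were higher. Of 8 endothelial markers 1 was lower (Pecam1 at -0.22), and LSK and blood markers split into 1 higher and 1 lower of 8. Of the hepatocyte, trophoblast and stromal markers, 0 passed. The part of cell make-up in the member changes was not tested.

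Only 1 of the 92 regions tested passed, where 0.559% of all regions did. It is the Vegfa region about 31 kb upstream, chr17:46063219-46063764, which overlaps the developmental region that was highest in marrow. It read 34.8, 36.5 and 35.7 CPM in SHI and 21.6, 23.5 and 29.4 in co-SHI (log2 change -0.51, SE 0.12, adjusted p = 0.043). All co-SHI values lay below all SHI values, and the call held in 1 of 6 fits with a library left out. No start-covering region passed; the largest changes were Pfkp (0.37, SE 0.12, adjusted p = 0.14) and Bnip3 (0.31, SE 0.095, adjusted p = 0.12).

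The cultured table also carries 3 columns named E12.5 FL, with 3.12 to 4.37 times the counts of the developmental columns of the same names over 2353 shared regions, so they were kept apart from those. Over these regions each column's log2 counts correlated most with the first 1w BM library (r = 0.885, 0.878 and 0.888) and less with the developmental column of its own name (0.842, 0.854 and 0.866), and at most 8 counts were equal. Whether they are the same libraries counted again was not tested, and they are called the E12.5 FL columns only after their names. By those names, SHI against these columns sets cultured against uncultured cells, and the effect of culture and of a separate experiment cannot be told apart. Aldoa and Vegfa were higher in SHI and Pfkp was lower, 3 of 10 genes, where 19.5% of all genes were higher and 19.2% lower. Aldoa read 62.4, 64.2 and 63.5 CPM in the E12.5 FL columns and 92.2, 101.8 and 84.4 in SHI (log2 change 0.54, SE 0.084, adjusted p = 2e-05). Vegfa read 126.9, 131.5 and 128.0 CPM against 154.5, 170.7 and 157.0 (0.32, SE 0.057, adjusted p = 0.00012). Pfkp read 101.8, 97.6 and 93.3 CPM against 70.5, 73.6 and 76.6 (-0.41, SE 0.067, adjusted p = 4.7e-05). The groups did not overlap in these 3 genes. In each, the co-SHI mean lay between those of the E12.5 FL columns and SHI, though the comparisons share the SHI libraries.

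**Figure D5:**
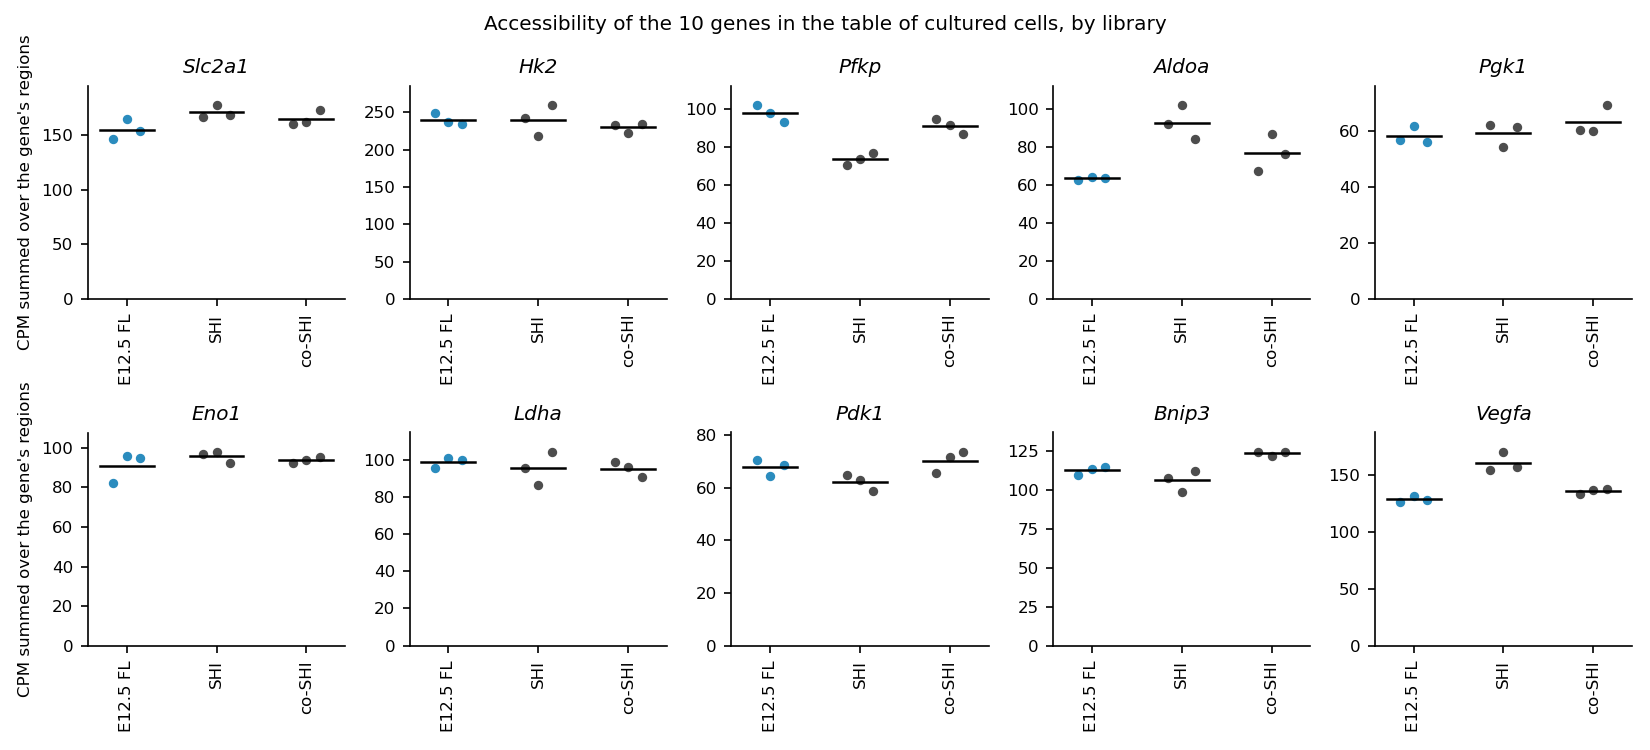
Summed accessibility of each gene (y axis, CPM, from 0) in each of the 9 columns of the cultured table (points) by group (x axis), with bars for group means. Vegfa and Aldoa are highest and Pfkp lowest in SHI, and for most other genes the 3 groups overlap.

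Of the 93 regions in that table, 16 were higher in SHI and 3 lower, where 11.6% and 7.04% of all regions were. With total counts the split was 11 and 8, and with loess offsets 13 and 6. Vegfa held 4 of the higher regions and Slc2a1 another 4. The region over the Vegfa start, chr17:46031596-46033581, read 27.6, 29.7 and 32.9 CPM in the E12.5 FL columns and 46.4, 50.5 and 46.8 in SHI (log2 change 0.67, SE 0.11, adjusted p = 9e-06), with 39.0, 41.8 and 43.1 in co-SHI. The start region of Aldoa rose by 0.70 (SE 0.098, adjusted p = 1.4e-06) and the first start of Ldha by 0.42 (SE 0.11, adjusted p = 0.0071). Those are 3 of 11 start regions, where 36.9% of all start-covering regions were higher and 2.44% lower. The share of counts at gene ends was 35.7% in SHI and 32.1% in the E12.5 FL columns, and its part was not tested. With loess offsets 2 were higher, Vegfa and Aldoa, and 2 lower, Bnip3 and Pfkp. Away from the starts, Slc2a1 had a region at chr4:119125450-119126449, 17.2 kb inside the gene, that read 6.49, 3.73 and 4.87 CPM in the E12.5 FL columns and 8.91, 12.8 and 12.3 in SHI (1.18, SE 0.20, adjusted p = 3.7e-05). It overlaps the developmental region that was lower in E12.5 FL than in PL and in 8w BM. In Hk2, the region at chr6:82753049-82754073, 20.9 kb from the start, read 2.62, 2.88 and 3.89 CPM and then 7.49, 6.32 and 11.1 (1.43, SE 0.23, adjusted p = 1.1e-05). Vegfa had a region 1.5 kb inside the gene at 7.92, 5.63 and 7.78 CPM and then 13.8, 16.9 and 12.3 (1.01, SE 0.17, adjusted p = 2.2e-05). The 3 lower regions were 2 in Pfkp, at 57.6 kb (-1.13, adjusted p = 0.012) and 1.5 kb (-0.41, adjusted p = 0.038) from the start, and 1 in Pdk1, at 49.3 kb (-1.25, adjusted p = 0.018). The smallest p was in Bnip3, at chr7:138903812-138904325, 5.4 kb inside the gene, where a weak region read 0.71, 0.42 and 0.46 CPM and then 2.76, 4.26 and 5.06 (2.92, SE 0.35, adjusted p = 4.7e-08). Co-SHI read 2.77, 3.28 and 2.60 CPM there, also above all 3 E12.5 FL columns.

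The wider pathway was taken from 4 lists that exclude the members. Counts of the lists are given under the reported scaling of gene sums alone. The part of the share of counts at gene ends in them was not tested. In E12.5 FL against PL, 23.9% of all genes were lower and 25.7% higher, with a median of -0.02, and the counts of the lists stand beside those shares. Here 13 of 19 further hypoxia response genes were lower and 2 higher, with a median log2 change of -0.48. Lower were Bhlhe40, a HIF-induced repressor (-1.05, adjusted p = 2.6e-09), Hmox1, which breaks down haem (-1.20, 9.9e-09), and Ndrg1 (-0.92, 1.6e-08), and Cxcr4, the receptor that holds stem cells in marrow, was higher (0.88, 3.2e-09). Pyruvate dehydrogenase genes were lower in 8 of 12 and higher in 1, with Pdk4 at -1.50 and Pdhx at 1.07. That list holds kinases such as Pdk4 beside parts of the enzyme such as Pdhx, so its counts do not give 1 direction of the pathway. Among 16 further glycolysis genes, which include the glucose transporter Slc2a3, 5 were lower and 2 higher, with Gapdh at -0.68, Pfkfb3 at -0.64 and Pfkfb4 at 0.48. Of 11 regulators of the pathway, 4 were lower and 1 higher. Epas1, which encodes HIF-2 alpha and is strong in endothelium, averaged 260.3 CPM in PL and 101.5 in FL (-1.36, SE 0.11, adjusted p = 2.2e-13), beside the higher endothelial marker sum in PL, whose part was not tested. Of the endothelial markers, 7 of 8 were lower in FL, as were 4 of 8 trophoblast and 3 of 7 stromal markers, with 1 stromal marker higher. Higher in FL were 5 of 8 macrophage and 4 of 7 erythroid markers, and of the LSK and blood markers 4 of 8, with 2 lower. The hepatocyte markers split into 2 higher and 2 lower of 6. Hif1a did not pass (-0.21, adjusted p = 0.087), Arnt, the partner of both HIF-alpha subunits, was lower (-0.35, adjusted p = 0.015) and Egln3, a HIF prolyl hydroxylase, was higher (0.36, adjusted p = 0.012).

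In perinatal BM against E16.5 FL, 10.6% of all genes were higher and 6.16% lower. Beside that, 5 of 12 pyruvate dehydrogenase genes were higher and 0 lower, and 5 of 19 hypoxia response genes were higher and 1 lower. In the other lists, 2 of 16 glycolysis genes and 2 of 11 regulators were higher. Pdhb rose by 0.59 and Egln3 by 0.55 (adjusted p = 0.0022), from 139.03 to 202.94 CPM. In 8w BM against E12.5 FL, where 15.7% of all genes were higher and 14.2% lower, 7 of 12 pyruvate dehydrogenase genes and 7 of 19 hypoxia response genes were higher and 0 and 1 lower. Arnt was higher (0.52, adjusted p = 0.0011) and Hif1a lower (-0.29, adjusted p = 0.028). Of the 16 glycolysis genes, 4 were higher, Hk1 at 0.78, Gpi1 at 0.78, Pfkfb3 at 0.77 and Pfkl at 0.40, and 1 was lower. In co-SHI against SHI, where 4.67% of all genes were higher and 2.45% lower, Ldhb (0.34, adjusted p = 0.033) and Slc2a3 (0.24, 0.045) were higher, P4ha2 (-0.35, 0.017) and Adm (-0.34, 0.036) were lower, and none of the pyruvate dehydrogenase genes or regulators passed.

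The 10 genes did not move as 1 block. Over the 26 developmental libraries, the 45 pairs of members had a median Pearson r of log2 CPM of 0.144, with 30 pairs above 0, and without the PL libraries the median was 0.149. These values share libraries, depth and the share of counts at gene ends, and are given as a description. Outside the lists, the genes most like Bnip3 were Rnf13 (r = 0.921), Slc25a29 (0.918) and Wdpcp (0.911). Those most like Aldoa were Aph1b (0.889), Chkb (0.882) and Ddx50 (0.874), and those most like Pfkp were Fam120b (0.933), Itpr1 (0.918) and Man1a (0.914), of 16550 genes compared.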

How the data were processed

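ATAC-seq libraries of LSK cells were made with Tn5 on nuclei and 10 PCR cycles, per the labels' protocols. The authors deposited 2 tables of raw read counts per region, and for each library a peak list with a score, a fold enrichment ratio and −log10 p and q values. Trim Galore, MACS2, deepTools, DiffBind, HOMER and mm10 are named without versions, per the submitters' processing notes. The aligner and the counting settings are not given in the sources used here. Regions are 501 to 3152 bp long.

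Groups were taken from the labels. Regions were assigned to genes with RefSeq spans. A region in several spans, 796 or 997 per table, was counted in the sum of each of those genes. Peaks were used only for overlap (at least 1 base, bedtools 2.31.1). Counts of regions and of gene sums were fitted with edgeR 4.0.16 in R 4.3.3 (filterByExpr at 10 counts, TMM, quasi-likelihood F test, Benjamini-Hochberg threshold 0.05), in 1 fit of the 26 developmental libraries and, for the cultured table, in a fit of the 6 SHI and co-SHI libraries and a fit of all 9 columns. SE is that of the log2 change. Loess offsets (limma 3.58.1) and DESeq2 1.42.0 were alternatives. The edgeR step was also run on simulated gene counts with the same dispersion for all genes and no scaling differences beyond library size. That run cannot speak to the effects of scaling or of single libraries. Named were all members, each member's strongest region and its region of smallest p, up to 3 further called regions per comparison, up to 4 called genes per list, and Hif1a, Epas1, Arnt and Egln3. Members, lists and alternatives were chosen with earlier results of these data known.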

Additional observations from a re-analysis of the deposited data

How the results depend on the processing

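Of the counts of member genes or regions called, 295 values under an alternative stayed within 1.5 times the reported count and 33 did not. The 295 include comparisons with 0 member calls, where almost no gene or region passed at all, as from 4w to 8w BM. Those counts had little room to move, so the tally does not measure the stability of the comparisons with calls. Of the log2 changes of single genes, 1341 kept their side of the threshold, 40 lost the call, 29 gained one and 2 reversed. Direction was compared only where the reported or the alternative fit passed. A change of sign between 2 fits that did not pass is therefore among the 1341. The cause of these moves was not tested, except where fewer libraries or regions entered the fit.

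For member regions, loess offsets gave 32 calls in E12.5 FL against PL, 3 in perinatal BM against E16.5 FL and 10 in 8w BM against E12.5 FL. In perinatal BM against E16.5 FL, total counts gave 8, the compared groups alone 7, and leaving out 1 library 6 to 12. Over any group, 25 were called without E12.5 PL. In co-SHI against SHI, leaving out 1 library gave 0 to 1.

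For member genes in E12.5 FL against PL, gene-end regions alone gave 0 calls, the scaling of the regions 7, and leaving out 1 library 2 to 5. In perinatal BM against E16.5 FL, total counts gave 1, loess offsets 0, the compared groups alone 1, a window of 10 kb 5, the scaling of the regions 6, and leaving out 1 library 1 to 2. Over any group, 4 were called without E12.5 PL and 3 from gene-end regions. In co-SHI against SHI, a 10 kb window gave 1 and leaving out 1 library 0 to 4. In SHI against the E12.5 FL columns, the scaling of the regions gave 5.

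Bnip3 in E12.5 FL against PL reversed to 0.20 (edgeR adjusted p = 0.23) with gene-end regions only, and Pgk1 in perinatal BM against E16.5 FL reversed to 0.72 (adjusted p = 0.037) without the first E16.5 FL library, in a range of -0.49 to 0.72 over single libraries left out.

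Replicate numbers did not pair the libraries: correlations of same-numbered libraries ran from -0.128 to 0.33, and in no comparison were all over 0.1. With a replicate block, 49 regions and 4 genes were called in E12.5 FL against PL, 15 and 3 in perinatal BM against E16.5 FL, 20 and 3 in 8w BM against E12.5 FL, 1 and 3 in co-SHI against SHI, and 19 and 3 in SHI against the E12.5 FL columns.

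The scaling, the restriction to gene-end regions and single libraries each changed calls. Of the 14 member regions called in perinatal BM against E16.5 FL, 6 were still called without the first E16.5 FL library and 6 without the second perinatal library. Counts are reads and not molecules, so depth alone does not give their precision.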
